A study of Mus musculus with 6 samples.

Results

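The EGF receptor family and its ligands were examined by RNA sequencing in mouse liver preparations labelled as hepatic stellate cells. The 10 genes are the receptors Egfr, Erbb2 and Erbb3, the ligands Areg, Ereg, Hbegf, Btc, Tgfa and Nrg1, and Errfi1, a cytoplasmic inhibitor of the receptors. They were taken by gene symbol from the deposited count table, and 10 of 10 were found among its 22966 genes. The family was selected on the Cre against flox fold changes of these same libraries, known from an earlier analysis, so its values are given as a description, and its adjusted p-values in this contrast describe the fit and support nothing. Stellate cells are the vitamin A-storing pericytes of the liver, which become collagen-producing myofibroblasts after injury. Of the 6 libraries, 3 are titled flox and 3 are titled Cre, and the groups rest on these titles alone. All 6 carry the same genotype entry, BucheHep, and the same treatment entry, carbon tetrachloride (CCl4), a hepatotoxin used to induce liver fibrosis. The mice are named BucheΔHep and the series text speaks of a Buche knockout with reference to hepatocytes. The Cre driver, strain, age, sex, CCl4 schedule and any cell sort are not stated in the labels. Nor do the labels say that each library is a different mouse, so every p-value here reflects variation among libraries that could be technical.

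ErbB receptors are membrane tyrosine kinases that pair after a ligand binds. Egfr binds amphiregulin (Areg), epiregulin (Ereg), heparin-binding EGF (Hbegf), betacellulin (Btc) and transforming growth factor alpha (Tgfa), while neuregulin 1 (Nrg1) binds Erbb3. Erbb2 has no known ligand of its own and serves as a partner, and Erbb3 has little kinase activity and signals through its partner. The ligands are made as membrane precursors that metalloproteinases release. Activated receptors feed the Ras-ERK and PI3K-AKT cascades, and Errfi1 is induced by this signal and binds the receptor kinase domain as negative feedback.

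Total counts ran from 37273142 to 41006722 per library. Values per gene are CPM, counts scaled by library size and by TMM, a factor that corrects for composition, unless FPKM is named, which is also per gene length. The labelled cell type was checked with 12 stellate markers, all detected, whose summed level was 1248 to 3067 CPM in flox and 2181 to 3561 CPM in Cre. Of the 12, 2 were higher and 0 lower in Cre at an edgeR adjusted p below 0.05, with a median log2 fold change of 0.38. The first marker of this list, Lrat, the retinyl ester synthase of resting stellate cells, stood at 0.124 to 2.49 CPM in flox and 0.169 to 1.03 CPM in Cre. The 12 macrophage and Kupffer cell markers summed to 7634 to 21572 CPM in flox, where flox 3 was lowest, and 2297 to 2749 CPM in Cre, and 11 of 12 were lower in Cre at an edgeR adjusted p below 0.05. The 10 mesothelial markers summed to 716 and 851 CPM in Cre 1 and Cre 2 but 204 CPM in Cre 3, against 183 to 271 CPM in flox, with 0 of 10 past the test. The 10 hepatocyte markers summed to 164 to 603 CPM in flox and 52.0 to 302 CPM in Cre, and the 8 cholangiocyte markers to 112 to 1914 CPM in flox and 253 to 329 CPM in Cre. The 8 endothelial markers summed to 1175 to 3599 CPM in flox and 1882 to 2999 CPM in Cre. By the same test, 0 of 9 tested hepatocyte, 1 of 8 cholangiocyte and 1 of 8 endothelial markers were lower in Cre. In each of these lists 0 were higher, and the median log2 fold changes were -1.17, -0.21 and -0.076. The macrophage sum exceeded the stellate sum in every flox library and in Cre 1. By mean log2(CPM + 1) the macrophage markers were above the stellate markers in every library. The gap was narrow in Cre 2, at 6.30 against 6.09, and in Cre 3, at 6.82 against 6.71. The levels below are therefore those of the whole preparation and cannot be assigned to stellate cells alone. In bulk RNA, fewer cells of a type and less RNA per cell cannot be told apart.

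The receptors moved in opposite directions. Egfr rose in the Cre libraries and Erbb3 fell, and these were the 2 of 10 genes past an edgeR adjusted p below 0.05. Over all 14795 genes tested, 15.3% passed, with 6.35% higher and 8.94% lower in Cre. Egfr (chromosome 11, 16752203 to 16918158 in GRCm38) stood at 61.7, 50.3 and 51.8 CPM in flox 1, 2 and 3 and at 123, 125 and 135 CPM in Cre 1, 2 and 3. The groups were far apart and narrow, at 54.6 ± 6.18 and 127.6 ± 6.13 CPM (SD, n = 3). On the log2 scale Cre exceeded flox by 1.22 ± 0.12 (estimate ± standard error, as for all fold changes below, with edgeR adjusted p = 0.0226), a 2.33-fold difference. With 1 library left out it stayed between 1.18 and 1.33, so neither flox 3 nor Cre 3 moved it much. The adjusted p did cross the threshold, at 0.0849 and 0.0644 when flox 1 or flox 2 was left out and at 0.107 and 0.0798 when Cre 1 or Cre 2 was. In these 4 settings edgeR called 0 genes of the whole table, with 3562 to 3978 at an unadjusted p below 0.05. Only edgeR was run on these subsets. The macrophage markers summed to 7634 CPM or more in each flox library and to 2749 CPM or less in each Cre library. The part of this shift in the Egfr difference was not tested.

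Erbb3 (chromosome 10, 128567523 to 128589652) was the only 1 of these 3 receptors with a lower mean in Cre. It had 8.72, 14.6 and 6.72 CPM in flox 1, 2 and 3 and 3.63, 2.51 and 2.05 CPM in Cre 1, 2 and 3. Each Cre library lay below each flox library, and the flox libraries differed more among themselves. The means were 10.01 ± 4.10 and 2.73 ± 0.810 CPM (SD, n = 3), a difference of -1.87 ± 0.38 in log2 units (edgeR adjusted p = 0.0278). Leaving out Cre 1 gave -2.10 and leaving out flox 2 gave -1.48, the extremes. The edgeR adjusted p was 0.0885 and 0.0822 when flox 1 or flox 2 was left out and 0.107, 0.0962 and 0.0610 when Cre 1, Cre 2 or Cre 3 was. Flox 2, with the highest Erbb3, also had the highest macrophage marker sum, 21572 CPM, and flox 3, with the lowest Erbb3 of the group, the lowest, 7634 CPM. The macrophage sum in Cre 1, 2 and 3 was 2322, 2297 and 2749 CPM, which is not the order of Erbb3. The cholangiocyte sum had the order of Erbb3 in flox, at 1501, 1914 and 112 CPM in flox 1, 2 and 3. In Cre 1, 2 and 3 it was 281, 253 and 329 CPM, also not the order of Erbb3. The mean log2(CPM + 1) of the cholangiocyte markers was 3.22, 3.10 and 2.40 in flox 1, 2 and 3. By that measure flox 1 and not flox 2 was highest. The hepatocyte sum was highest in flox 3, at 603 CPM. The part of other cell types in the Erbb3 difference was not tested.

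Erbb2 (chromosome 11, 98412470 to 98437716) had 15.1, 9.92 and 25.7 CPM in flox 1, 2 and 3 and 25.5, 26.6 and 32.2 CPM in Cre 1, 2 and 3. Flox 3 lay among the Cre libraries, so the groups overlapped. The difference, 0.73 ± 0.34 in log2 units, missed the threshold (edgeR adjusted p = 0.175). Without flox 3 it was 1.17 (edgeR adjusted p = 0.0113). Exons of Erbb2 share 9 bases with those of Mien1 on the other strand.

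Per length, the receptor means ranked Egfr, Erbb2 and Erbb3 in both groups, with wider gaps in Cre. In flox, Egfr had 4.03 ± 0.460 FPKM, Erbb2 3.26 ± 1.74 and Erbb3 1.56 ± 0.567 (SD, n = 3), but Erbb2 exceeded Egfr in flox 3 and Erbb3 exceeded Erbb2 in flox 2. In Cre, Egfr had 10.48 ± 0.343 FPKM, Erbb2 5.93 ± 0.657 and Erbb3 0.482 ± 0.150, with no overlap between neighbours. Egfr therefore made up 39.2% to 51.8% of the summed FPKM of these 3 receptors in flox and 60.7% to 62.9% in Cre. Erbb3 made up 10.9% to 29.2% in flox and 1.98% to 3.95% in Cre. The share of Erbb2 spanned 23.8% to 49.95% in flox and 33.3% to 37.3% in Cre.

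**Figure D1:**
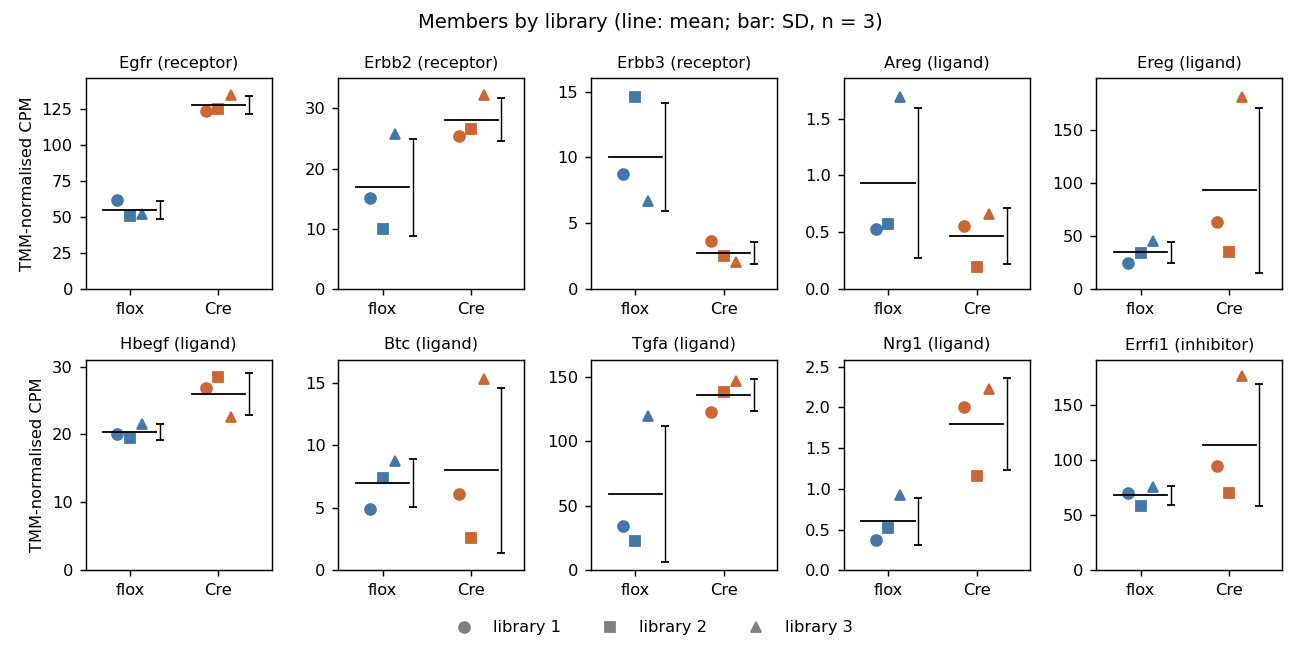
TMM-normalised CPM (linear axis from 0, a scale of its own for each gene) of the 10 genes in the 3 flox and 3 Cre libraries, with the mean as a line and the SD as a bar (n = 3). Egfr separates into 50.3 to 61.7 CPM in flox and 123 to 135 CPM in Cre, Tgfa and Erbb2 in flox 3 sit near the Cre libraries, and Ereg, Btc and Errfi1 are highest in Cre 3.

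Tgfa was the ligand of highest FPKM over the 6 libraries. It is encoded on chromosome 6 (86195223 to 86275719) and had 34.1, 23.2 and 119.6 CPM in flox 1, 2 and 3 and 123, 138.5 and 147 CPM in Cre 1, 2 and 3. The groups did not overlap, but flox 3 stood next to Cre 1 and far above flox 1 and 2. The log2 difference of 1.21 ± 0.58 missed the threshold (edgeR adjusted p = 0.192). Without flox 3 it was 2.25 (edgeR adjusted p = 0.00102), and without flox 2 it was 0.83 (edgeR adjusted p = 0.376). Erbb2 and Tgfa shared this profile over the libraries, with a Pearson r of 0.98 over 6 libraries, which share the split into 2 groups and their library factors. Exons of Tgfa share 118 bases with those of a predicted gene on the other strand.

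Ereg, the epiregulin gene (chromosome 5, 91074622 to 91093646), was uneven within the Cre group. Its levels were 24.7, 33.7 and 44.8 CPM in flox 1, 2 and 3 and 62.7, 35.1 and 180.7 CPM in Cre 1, 2 and 3. Cre 2 lay within the flox range and Cre 3 far above all other libraries. The log2 difference was 1.43 ± 0.59 (edgeR adjusted p = 0.139, and 0.0436 in DESeq2), and it was 0.52 without Cre 3. Errfi1, the inhibitor (chromosome 4, 150853919 to 150868892), showed the same order of the Cre libraries. It had 69.9, 58.6 and 75.8 CPM in flox 1, 2 and 3 and 94.4, 70.2 and 175.8 CPM in Cre 1, 2 and 3. Its log2 difference was 0.74 ± 0.33 (edgeR adjusted p = 0.167), or 0.29 without Cre 3. Across the 6 libraries Ereg and Errfi1 had a Pearson r of 0.96. Cre 3 also had the highest stellate marker sum, 3561 CPM, and the lowest mesothelial sum of the Cre libraries, 204 CPM. Its macrophage sum, 2749 CPM, was the highest of the Cre libraries. In flox 1, 2 and 3 the stellate sum was 3067, 1744 and 1248 CPM, the reverse of the order of Ereg. The part of these cell types in the levels of Ereg and Errfi1 was not tested. Exons of Ereg share 141 bases with those of a predicted antisense gene.

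Hbegf, whose membrane precursor is also the diphtheria toxin receptor, showed a small and narrow difference. It stood at 20.1, 19.4 and 21.6 CPM in flox 1, 2 and 3 and at 26.9, 28.5 and 22.5 CPM in Cre 1, 2 and 3. The groups did not overlap, with Cre 3 close to flox 3. The log2 difference of 0.35 ± 0.14 missed the threshold (edgeR adjusted p = 0.121). Cre 1 and Cre 2, the higher libraries of Hbegf, were also those with mesothelial sums of 716 and 851 CPM, and the part of mesothelial RNA was not tested.

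Btc (chromosome 5, 91357261 to 91402994) had no common direction. It stood at 4.91, 7.39 and 8.73 CPM in flox 1, 2 and 3 and at 6.08, 2.58 and 15.3 CPM in Cre 1, 2 and 3. The Cre group held both the highest and the lowest library. The log2 difference of 0.19 ± 0.61 (edgeR adjusted p = 0.851) became -0.68 without Cre 3.

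Areg and Nrg1 were scarce. For Areg (chromosome 5, 91139599 to 91148432), flox 1, 2 and 3 gave 20, 20 and 68 counts, and Cre 1, 2 and 3 gave 22, 8 and 27 counts. Flox 3 stood above the other 5 libraries, which overlapped. The log2 difference of -0.99 ± 0.70 (edgeR adjusted p = 0.352) became -0.23 without flox 3. For Nrg1 (chromosome 8, 31814551 to 32884029), flox 1, 2 and 3 gave 14, 18 and 37 counts and Cre 1, 2 and 3 gave 80, 48 and 91 counts, or 0.602 ± 0.286 and 1.80 ± 0.563 CPM (SD, n = 3). The groups did not overlap, with Cre above. At 1.57 ± 0.50 in log2 units it missed the threshold (edgeR adjusted p = 0.0778, and 0.0165 in DESeq2), and was 2.02 without flox 3 (edgeR adjusted p = 0.0288). Exons of Nrg1 share 482 bases with those of a non-coding RNA on the other strand, which had 0 or 1 counts in each library.

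Over the 10 genes, 8 had a positive and 2 a negative fold change, with a median of 0.73 against 0.012 over all genes tested. The flox and Cre libraries did not overlap for 5 of the 10, Egfr, Hbegf, Tgfa and Nrg1 with Cre above and Erbb3 with Cre below. Over all genes tested 39.6% did not overlap, 19.6% with Cre above and 20.0% with Cre below. All 10 passed the filter on low counts.

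**Figure D2:**
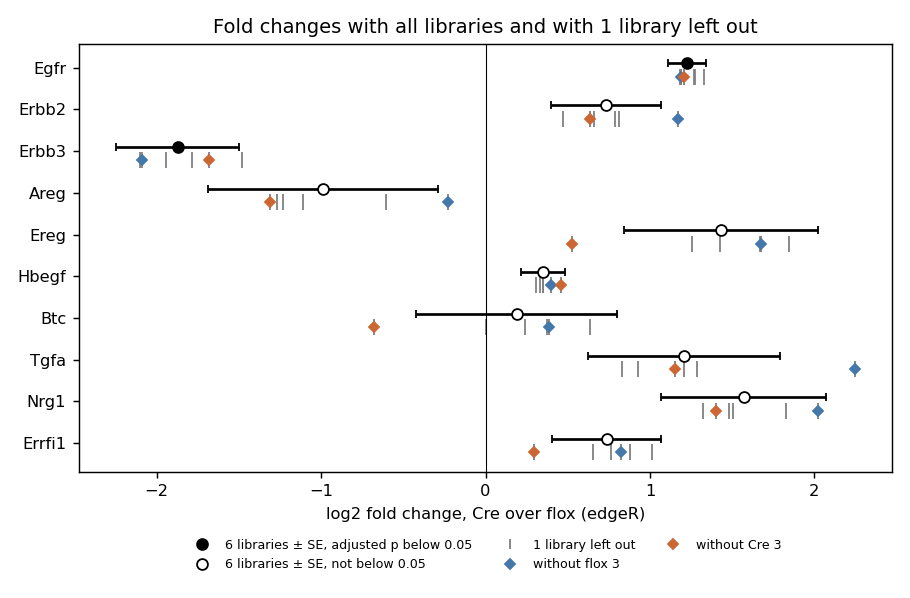
Log2 fold change of each gene, Cre over flox, with 6 libraries (circle, bar: standard error) and with each library left out in turn (ticks, diamonds for flox 3 and Cre 3). Egfr keeps 1.18 to 1.33 in every case, Tgfa reaches 2.25 without flox 3, and Ereg and Btc drop to 0.52 and -0.68 without Cre 3.

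Per length, 3 ligands supplied most of the summed RNA of the 6 ligands among these 10 genes. In flox, Tgfa had 12.2 ± 11.5 FPKM, Hbegf 8.14 ± 0.917 and Ereg 7.95 ± 2.73 (SD, n = 3), which did not differ beyond their spread. Btc followed at 2.32 ± 0.737, Areg at 0.744 ± 0.571 and Nrg1 at 0.0250 ± 0.0133 FPKM. In Cre, Tgfa had 30.2 ± 2.29, Ereg 23.5 ± 19.2 and Hbegf 11.5 ± 1.50 FPKM, then Btc 2.92 ± 2.36, Areg 0.406 ± 0.210 and Nrg1 0.0816 ± 0.0252 FPKM. The leading ligand was Hbegf in flox 1 and 2, Tgfa in flox 3, Cre 1 and Cre 2, and Ereg in Cre 3. In flox 2 Hbegf and Ereg were almost level, at 7.40 and 7.36 FPKM. Tgfa made up 30.2%, 20.1% and 50.8% of the summed ligand FPKM in flox 1, 2 and 3. In Cre 1, 2 and 3 it made up 47.0%, 57.5% and 34.4%. That of Ereg ranged over 21.9% to 33.5% in flox and over 16.7% to 48.5% in Cre, highest in Cre 3. The summed ligand level was 31.3 ± 16.2 FPKM in flox and 68.7 ± 21.7 FPKM in Cre (SD, n = 3). Flox 3 lay just under the lowest Cre library, which had 53.7 FPKM. FPKM are not corrected for composition, and the TMM factors were 0.905 to 1.01 in flox and 1.04 to 1.07 in Cre. FPKM therefore place Cre higher relative to flox than CPM do.

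**Figure D3:**
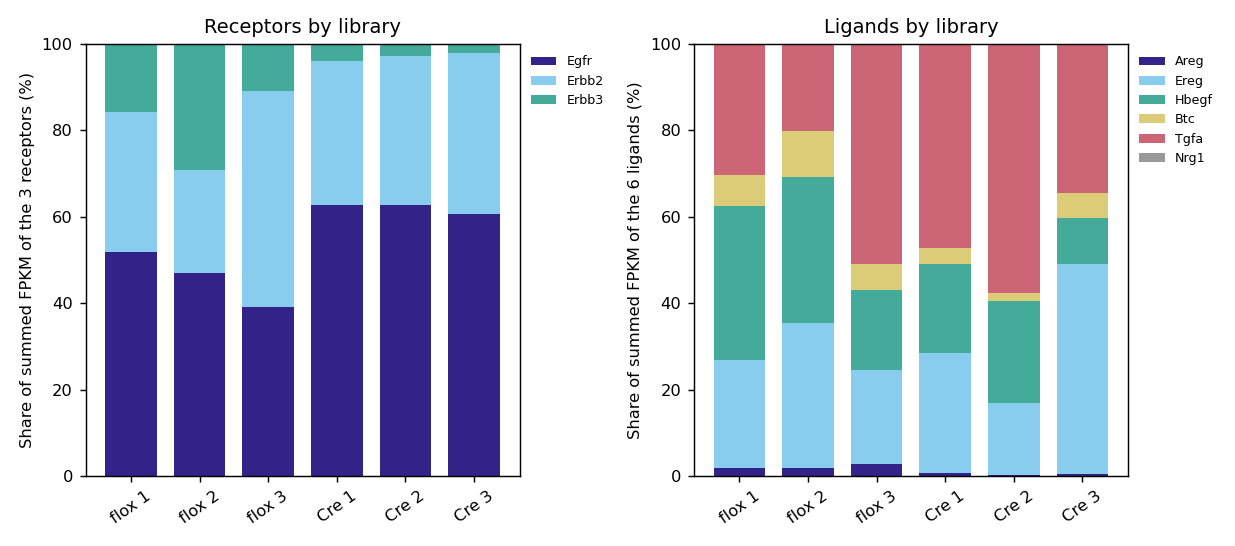
Share of each gene in the summed FPKM of the 3 receptors (left) and the 6 ligands (right), in percent, 1 stacked bar per library. Egfr takes 60.7% to 62.9% of the receptors in each Cre library against 39.2% to 51.8% in flox, while among ligands the leading gene changes from library to library.

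Areg, Ereg and Btc lie side by side on chromosome 5 in GRCm38, with epigen (Epgn) before them. Ereg starts 39406 bases after Epgn, Areg 45952 bases after Ereg, and Btc 208828 bases after Areg on the opposite strand. The Pearson r over 6 libraries was 0.73 for Ereg and Btc, 0.70 for Areg and Btc and 0.20 for Areg and Ereg. Epgn was not tested, with 1 count in each flox library and 9, 0 and 7 counts in Cre 1, 2 and 3.

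RefSeq promoter sequences of GRCm38.p6 were matched for 6 of the 10 genes, in 7 entries. In the 250 bases before the start, the cyclic AMP response element TGACGTCA, which binds CREB and ATF factors and is its own reverse complement, was found in Areg and in 1 of the 2 entries of Errfi1. It was present in 1.55% of 32851 such windows. TATAAA, searched on both strands like all motifs here, was found in the same 2 windows and in 12.4% of all. In Areg the element begins 61 bases and TATAAA 31 bases before the start, and in Errfi1 51 and 28 bases. The windows of Egfr and Tgfa, the receptor and the ligand of highest FPKM, hold neither. GGGCGG, the GC box bound by Sp factors, occurs in 4 of the 7 entries and in 32.7% of all windows. It is found 1 time in Egfr and in Areg, 2 times in Tgfa and 3 times in that entry of Errfi1. Btc, Erbb2 and the other entry of Errfi1 lack it. The AP-1 motif TGACTCA, which does not overlap these, was in 0 of the 7 entries and 4.46% of all windows. Areg and Errfi1, which share both motifs, had a Pearson r of 0.14 over 6 libraries. A match describes letters and shows no binding. These 4 windows are shown because they show the genes with and without TGACGTCA and TATAAA, in lower case with TGACGTCA and TATAAA in capitals.
Areg, chr5:91139349-91139598, plus strand: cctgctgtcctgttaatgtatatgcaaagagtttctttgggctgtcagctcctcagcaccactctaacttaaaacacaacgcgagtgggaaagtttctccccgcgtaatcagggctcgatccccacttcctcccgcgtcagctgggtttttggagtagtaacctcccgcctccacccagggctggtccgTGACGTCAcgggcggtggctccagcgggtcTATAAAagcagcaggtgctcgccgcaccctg
Errfi1, chr4:150854820-150855069, plus strand: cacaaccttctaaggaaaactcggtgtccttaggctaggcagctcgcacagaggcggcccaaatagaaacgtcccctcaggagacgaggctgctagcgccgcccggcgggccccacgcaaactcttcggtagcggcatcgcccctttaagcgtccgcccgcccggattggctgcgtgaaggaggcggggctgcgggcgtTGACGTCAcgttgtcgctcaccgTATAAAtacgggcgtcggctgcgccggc
Egfr, chr11:16751953-16752202, plus strand: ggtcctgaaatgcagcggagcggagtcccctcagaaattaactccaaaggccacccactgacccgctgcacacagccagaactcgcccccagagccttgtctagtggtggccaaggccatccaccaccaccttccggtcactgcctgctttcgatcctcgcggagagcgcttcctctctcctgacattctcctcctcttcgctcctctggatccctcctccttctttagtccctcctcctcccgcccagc
Tgfa, chr6:86194972-86195221, plus strand: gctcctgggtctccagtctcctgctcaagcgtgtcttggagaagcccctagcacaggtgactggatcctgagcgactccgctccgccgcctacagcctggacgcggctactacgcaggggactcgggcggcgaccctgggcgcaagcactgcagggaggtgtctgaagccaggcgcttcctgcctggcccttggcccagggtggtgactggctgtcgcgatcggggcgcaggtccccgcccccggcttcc

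Other genes of the pathway were taken from 6 lists of 97 genes, of which 95 were in the table and 91 were tested. Of these, 6 rose and 7 fell, or 13 of 91, near the 15.3% of all genes, and their median log2 fold change was 0.032 against 0.012. Over the lists, the groups did not overlap for 20 of the 91 genes tested with Cre above and for 20 with Cre below, beside 19.6% and 20.0% of all genes tested.

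Among the other receptors and ligands, 1 of 3 tested genes fell. Neuregulin 4 (Nrg4), a ligand of Erbb4, fell from 5.27 ± 0.283 to 1.91 ± 0.758 CPM (SD, n = 3), a log2 difference of -1.46 ± 0.37 (edgeR adjusted p = 0.0438). Its exons share 368 bases with Fbxo22 on the other strand. Erbb4 itself was not tested: flox 3 held 4 counts, Cre 2 held 1 and the other 4 libraries 0, which allows up to 3 counts each by counting error alone. Egf had 14 to 20 counts per flox library and 11 to 17 per Cre library (edgeR adjusted p = 0.547).

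Of 12 tested genes of ligand shedding and trafficking, 1 rose and 0 fell. Adam12, a metalloproteinase known to release Hbegf, rose from 32.2 ± 10.8 to 85.2 ± 10.2 CPM (1.40 ± 0.26, edgeR adjusted p = 0.0256). Adam17, the main sheddase of Tgfa and Areg, was at -0.39 ± 0.13 (edgeR adjusted p = 0.0816). Among 4 tested membrane partners 0 passed, with Cd9, a tetraspanin that associates with the Hbegf precursor, at -0.45 ± 0.20 and the mucin Muc1 at 0.26 ± 0.49 (edgeR adjusted p = 0.159 and 0.738).

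Of 31 adaptors and kinases, 1 rose and 3 fell, with a list median of -0.037. The ERK kinase gene Map2k1 rose from 169 ± 26.6 to 249.6 ± 9.87 CPM (0.56 ± 0.13, edgeR adjusted p = 0.0399). Grb2, the adaptor that links the receptors to Ras, fell from 250.3 ± 74.5 to 101 ± 9.84 CPM (-1.31 ± 0.24, edgeR adjusted p = 0.0250). The exchange factor Vav2 (-0.96 ± 0.20) and the PI3K subunit Pik3cb (-0.94 ± 0.24) fell too. Of 15 tested receptor-level inhibitors, 0 rose and 1 fell, the phosphatase gene Ptpn1 (-1.77 ± 0.32, edgeR adjusted p = 0.0250), with a list median of 0.055. Grb2 and Ptpn1 were lowest among flox libraries in flox 3, at 165 and 165 CPM, as was the macrophage marker sum, whose part in these falls was not tested.

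The 26 genes of the ERK feedback and target list split both ways, with 4 higher and 2 lower in Cre and a median of 0.41. The ephrin receptor gene Epha4 (2.25 ± 0.36), the ETS factor Etv4 (1.55 ± 0.40), Phlda1 (1.10 ± 0.27) and the ERK inhibitor Spry4 (0.89 ± 0.20) rose. Epha4 stood at 1.86, 1.49 and 3.66 CPM in flox 1, 2 and 3 and at 12.1, 10.7 and 10.5 CPM in Cre 1, 2 and 3. The ETS factor Etv5 (-1.37 ± 0.26) and the early response gene Fos (-1.49 ± 0.34) fell, the former from 59.1, 45.7 and 29.3 CPM in flox 1, 2 and 3 to 18.6, 18.4 and 14.7 CPM in Cre. The adjusted p values of these 6 genes in edgeR ran from 0.0241 to 0.0478. Dusp6, a widely used readout of ERK activity, was at -0.055 ± 0.18 (edgeR adjusted p = 0.856) and is named here after its value was seen.

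Without flox 3, all 13 of these pathway genes kept their call and direction. Without Cre 3, 5 kept the call, and leaving out any of flox 1, flox 2, Cre 1 and Cre 2 left 0, while all 13 kept their direction each time.

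**Figure D4:**
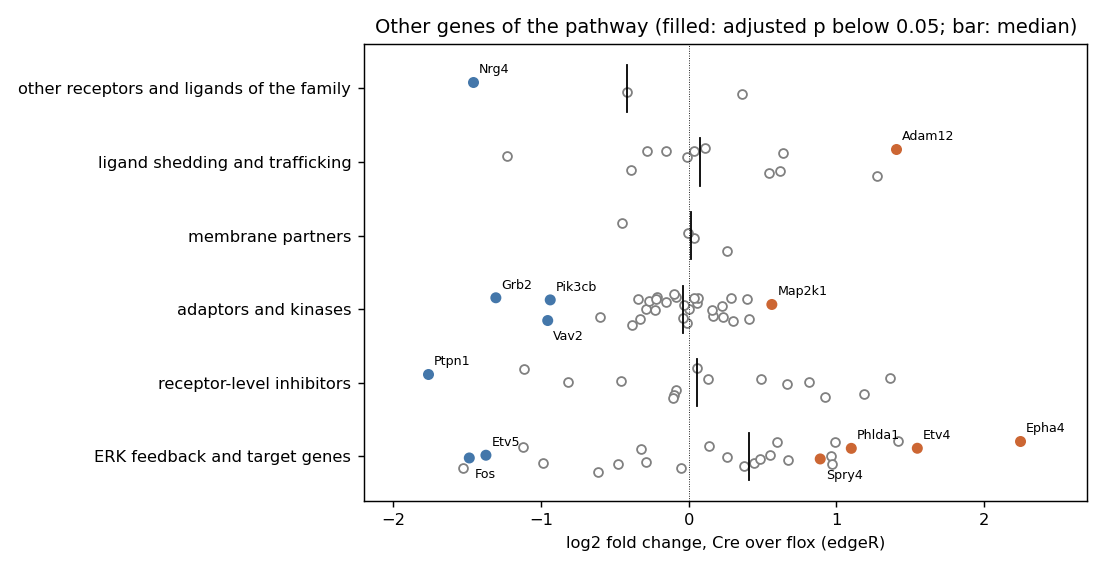
Log2 fold change, Cre over flox, of the 91 tested genes in the 6 pathway lists (points, filled and named where the edgeR adjusted p is below 0.05, vertical bar: list median; the vertical scatter has no meaning). Filled points lie on both sides of 0 among adaptors and among ERK targets, from -1.77 for Ptpn1 to 2.25 for Epha4.

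For likeness to Egfr and Tgfa, predicted genes, pseudogenes and unnamed sequences were left out by their symbols. Among the other genes tested, those whose log2 CPM followed Egfr most closely over the 6 libraries were Tmtc4, Wdr3 and Rplp0. Their Pearson r were 0.996, 0.995 and 0.995. Their differences between the groups were smaller than that of Egfr, at log2 fold changes of 0.59, 0.20 and 0.43. Those that followed Tgfa were Zzz3, Chd1 and Rgs12, each with r of 0.998. Rgs12 stood at 17.9, 16.2 and 31.9 CPM in flox 1, 2 and 3 and at 31.6, 33.5 and 35.3 CPM in Cre, with flox 3 within the Cre range as its CPM exceeded that of Cre 1. These r values describe 6 points that share the split into groups.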

How the data were processed

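Gene expression was measured by RNA sequencing in 6 libraries, grouped and numbered by their titles. The authors deposited raw counts per gene symbol and FPKM. In 11560 well-counted genes the FPKM were the count over the library total and 1 fixed length, to within 1e-06, and so are not corrected for composition. Builds named in the submitters' processing notes, without saying for what, are GRCm38, mm10 and hg38. Aligner, counter, annotation and use of strand: not given in the sources used here. Reads of genes whose exons overlap on opposite strands therefore cannot be told apart. Positions are from GENCODE M21 (GRCm38), matched by symbol. Per the labels' protocols, total RNA came from a column kit and was prepared with a SMARTER mRNA kit.

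Counts were tested with edgeR 4.0.16 (R 4.3.3): filterByExpr (minimum count 10, total 15), which kept 14795 genes, TMM, and a two-sided quasi-likelihood F-test with no covariate, Benjamini-Hochberg over all genes tested. Standard errors were taken from the fold change and the F statistic (|log2 fold change| over root F). No permutation test is given, since 3 against 3 allows no p under 0.1. Alternatives were RLE factors, library totals, DESeq2 1.42.0, limma-voom and limma-trend (limma 3.58.1), other filters, a replicate block and each library left out. The methods were tried on simulated counts. Members, lists and alternatives were chosen with earlier results of these data known. Named were all 10 members and up to 4 pathway genes per list and direction of lowest p past the threshold. Where none passed, the 2 of lowest p were named. The 3 genes most like Egfr and Tgfa by Pearson r were also named, without predicted genes, pseudogenes and unnamed sequences. A few others were named after their values were seen, Adam17, Egf, Erbb4 and Dusp6 among them. Of the pathway genes, Nrdc and Nrg3 were not analysed here. Krt7 and Krt19 stand in both the mesothelial and the cholangiocyte list. Of the neutrophil, T and NK cell and B cell lists, 1, 0 and 0 genes fell and 0, 0 and 1 rose; the neutrophil marker Ly6g had 0 counts in all libraries.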

Additional observations from a re-analysis of the deposited data

How the results depend on the processing

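Of the 10 genes of the family, 2 passed with edgeR, and the same count was found with RLE factors, library totals, other count filters, limma-voom and limma-trend restricted to a mean FPKM of 1 or more. DESeq2 gave 4, limma-trend on log2(FPKM + 1) 0 and on log2(FPKM + 0.1) 1, and 1 library left out gave 0 to 5, the highest without flox 3 (Egfr, Erbb2, Erbb3, Nrg1 and Tgfa). The pathway lists gave 13 in edgeR, 24 in DESeq2, 0 and 4 on log2(FPKM + 1) and log2(FPKM + 0.1), and 0 to 41 with 1 library left out. All genes gave 2263 in edgeR, 4044 in DESeq2, 1404 in limma-voom, 0 and 931 on log2(FPKM + 1) and log2(FPKM + 0.1), and 0 to 5329 with 1 library left out. Where log2(FPKM + 1) gave 0 calls, 5778 genes had an unadjusted p below 0.05, and where leaving out flox 1, flox 2, Cre 1 or Cre 2 gave 0, there were 3720, 3562, 3593 and 3978. Library totals moved the median of all genes from 0.012 to 0.17, the share of calls that were higher in Cre from 41.5% to 57.0%, and the pathway split from 6 higher and 7 lower to 9 and 5. That share was 59.6% in limma-trend restricted to a mean FPKM of 1 or more. The sign of Btc turned in limma-voom (-0.14) and, with 1 library left out, ran from -0.68 without Cre 3 to 0.63 without Cre 2. The pathway gene Muc1 ran from -0.046 without Cre 2 to 0.59 without Cre 3. The other 9 genes of the family kept their sign in every alternative run. The cause of these differences was not tested, and leaving out a library also leaves fewer samples.

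With the replicate number as a block, 0 genes of the family, 0 of the pathway lists and 0 of all genes passed, with 4296 genes at an unadjusted p below 0.05, and Btc was at -0.098. Same-numbered libraries deviated from their group means with correlations of -0.033, -0.10 and -0.056, and 0 of 3 pairs exceeded 0.1. The labels state no pairing, and these 3 correlations cannot show whether same-numbered libraries shared a preparation. Areg and Nrg1 had the fewest counts of the family, 8 to 68 and 14 to 91 per library.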
